A study of Mus musculus with 98 samples.

Results

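Daily rhythms of gene expression were examined in the livers of the control arm of the series, called Mu. The members were the 12 Mu liver libraries out of 98 libraries in all, 2 at each of 6 zeitgeber times (ZT, hours after lights on): ZT 2, 6, 10, 14, 18 and 22. A wave of 24 h period was fitted to each mouse gene in these libraries alone, and 13577 of the 19689 mouse genes in the count table had enough counts to be tested. All mice were FRGN males, which lack Fah, Rag2 and Il2rg on a non-obese diabetic background. The labels give an age of 10 weeks within the treatment protocol, which may not be the age when the livers were taken. In the Mu arm the liver had been repopulated with murine hepatocytes after injection into the spleen, and in the Hu arm, used below only where a rhythm differed, with human hepatocytes. Both arms were cycled on nitisinone, a drug that protects hepatocytes lacking Fah, at 8 mg/l with sulfamethoxazole, trimethoprim and 3% dextrose for 3 days every 5 weeks, and ate a high-energy diet. The livers therefore hold transplanted hepatocytes beside the endothelial, Kupffer, stellate and bile duct cells of an immunodeficient host. The light schedule, the feeding times and whether the 2 libraries of a time point came from separate mice are not given in the labels. If they did not, p-values measure only the spread between these samples.

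The liver clock is a feedback loop of transcription factors. Arntl (also called Bmal1) pairs with Clock or Npas2 and drives the Per and Cry genes, whose proteins return to switch off their own drivers. The nuclear receptors of the Nr1d (Rev-erb) and Ror families repress or activate Arntl in a second loop. Factors driven by the loop, such as Dbp, Tef and Hlf, pass the rhythm on to enzymes of drug, haem and bile acid metabolism. Feeding, body temperature and glucocorticoids set further daily rhythms in liver genes of lipid and glucose metabolism and of protein folding.

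The libraries held 97.1 to 118.3 M mouse counts, and human genes took at most 0.0204% of a library. Fah was present in every library, with a mean of 548 CPM (counts relative to the library total, scaled by TMM, the trimmed mean of M values, as are all CPM below), and was not called rhythmic (adjusted p = 0.489). Il2rg, which the labels give as deleted, had 97 to 317 counts in every library (0.984 to 2.9 CPM) and Rag2 10 to 41. Which part of either gene the deletion removes is not given in the labels, so these counts do not check it. Il2rg was called rhythmic (edgeR adjusted p = 0.0436), but not without the 2 libraries described next (0.0597), nor in 8 of the 12 fits that left out 1 library. The hepatocyte markers summed to between 75680 and 102500 CPM. ZT 2 replicate 1 and ZT 6 replicate 2 stood apart, since their log2 levels, relative to the mean over libraries, fell with transcript length, at slopes of -1.06 and -0.67 per 10-fold length against -0.31 to 0.60 in the other 10 libraries. The same 2 libraries had the highest summed level of 82 ribosomal protein genes, up to 20990 CPM against a median of 12200 CPM. ZT 10 replicate 1 had the highest fat cell and neutrophil markers, at 54.6 and 32.5 CPM summed against medians of 14.7 and 10.9 CPM. Results are therefore also given without the first 2 libraries, and with offsets for transcript length and GC content, both chosen after seeing the data.

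**Figure D1:**
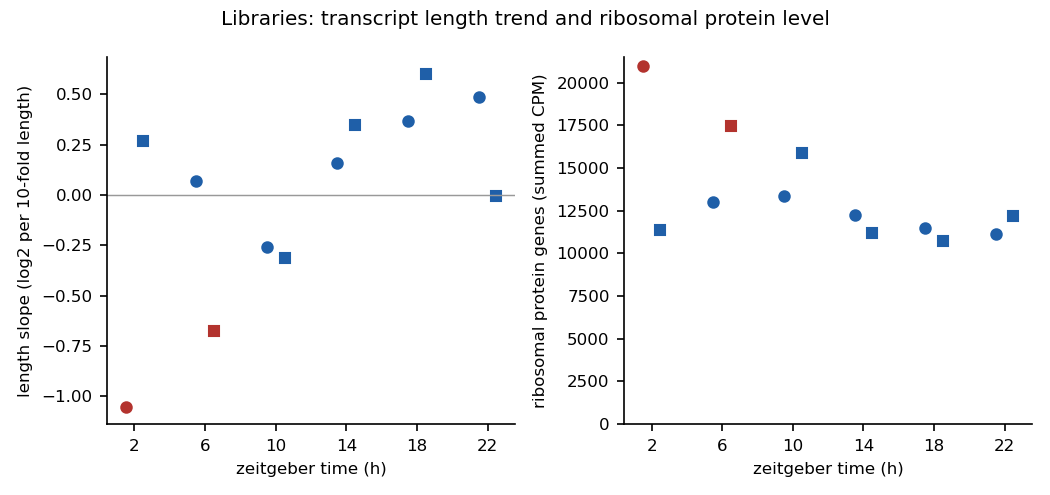
Each point is a Mu liver library (circles, replicate 1; squares, replicate 2). The left panel plots the slope of log2 level on transcript length against zeitgeber time in hours, and the right panel the summed CPM of 82 ribosomal protein genes. ZT 2 replicate 1 and ZT 6 replicate 2 (red) have the lowest slopes, -1.06 and -0.67.

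Rhythms of 24 h were called for 3928 of 13577 genes (28.9%) by edgeR's quasi-likelihood F test at an adjusted p under 0.05, the threshold used throughout. At an unadjusted p under 0.05 the share was 46.1%. Of the 3928, 1295 (9.54% of the genes tested) also had a fitted peak-to-trough fold of at least 2. The amplitude, which is how far the fitted crest stands above the mean in log2 units, had a median of 0.41 over rhythmic genes and 0.25 over all genes tested, and exceeded 1 in 184 genes. Amplitudes and peak times are given below ± the standard error of the fit. This error takes the cosine shape as true, so a fitted peak can lie away from the highest time point. In bulk liver, fewer cells of a type and less RNA per cell cannot be told apart in any of these results. Without the 2 libraries 3093 genes (22.8%) were called, with the offsets 4101 (30.2%), and 2377 (17.5%) in all 3 fits. Of the 2640 called both with and without the 2 libraries, 98.8% kept their peak time within 2 h, though these fits share all the remaining libraries. Over all 3928 rhythmic genes, the median shift of peak time without the 2 libraries was 0.443 h. The count fell to 2201 without ZT 6 replicate 2, 2493 without ZT 14 replicate 1, 2220 without ZT 14 replicate 2 and 2045 without ZT 18 replicate 2. The count with a fold of at least 2 was 2072 without ZT 6 replicate 1.

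Peak times gathered around 2 opposite parts of the day. Peaks between ZT 4 and 8 held 30.5% of the rhythmic genes and peaks between ZT 16 and 20 held 28.7%. Without the 2 libraries these windows held 22.1% and 22.7%, and the crests lay later, at ZT 6 to 8 and ZT 18 to 20. In blocks of 6 h, 1114 genes (8.21% of those tested) peaked from ZT 0 to 6, 820 (6.04%) from ZT 6 to 12, 1178 (8.68%) from ZT 12 to 18 and 816 (6.01%) from ZT 18 to 24. In the fit without the 2 libraries the first of these fell to 489 and the third to 664. Single libraries moved them too. The first count was 1827 without ZT 2 replicate 2, 1684 and 549 without ZT 6 replicates 1 and 2, 606 and 536 without ZT 14 replicates 1 and 2, and 565 without ZT 18 replicate 2. The second was 1419 without ZT 2 replicate 1, 495 without ZT 6 replicate 2, 457 without ZT 10 replicate 2, 392 without ZT 18 replicate 2 and 479 without ZT 22 replicate 1. The third was 659 without ZT 6 replicate 2, 737 and 616 without ZT 14 replicates 1 and 2, and 695 without ZT 18 replicate 2. The last was 1382 without ZT 2 replicate 1, 1233 and 498 without ZT 6 replicates 1 and 2, and between 393 and 517 without replicate 2 of ZT 10, 14 or 18 or ZT 22 replicate 1. Genes peaking in the first 12 h had a median transcript length of 1974 bases against 3500 bases for those peaking in the last 12 h and 2669 bases over all genes tested. The length trend of the libraries also ran with time of day, and its part in this difference was not tested. The share peaking from ZT 0 to 12 was 49.2% with TMM scaling, 48% without the 2 libraries and 70.4% when library totals were used with no composition scaling.

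**Figure D2:**
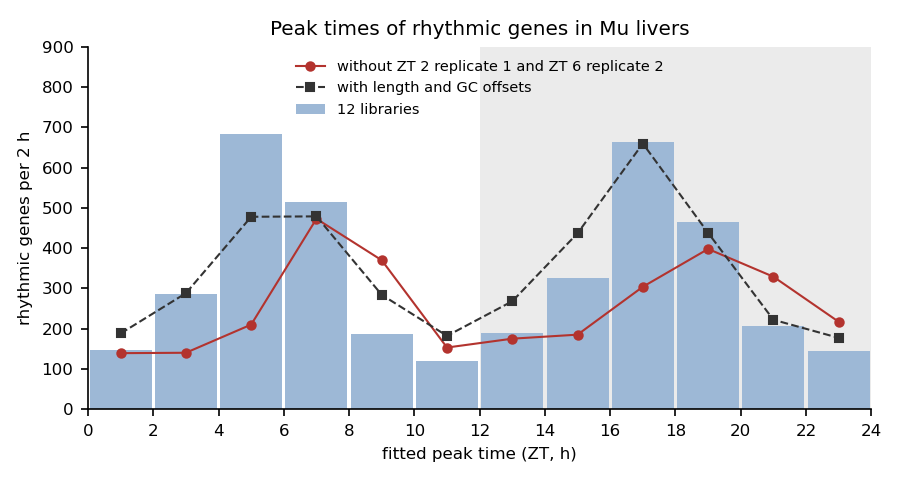
Number of rhythmic genes per 2 h of fitted peak time (x axis, ZT in hours; y axis, genes; grey, ZT 12 to 24). Bars show all 12 libraries, red circles the fit without ZT 2 replicate 1 and ZT 6 replicate 2, and black squares the fit with length and GC offsets. The bars reach 683 genes at ZT 4 to 6 and 663 at ZT 16 to 18, and the red line is lower there, at 210 and 304.

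The core clock list was rhythmic in 15 of 18 members (83.3%, against 28.9% of all genes tested), with a median amplitude of 1.85 against 0.25, and 13 of them were called in all 3 fits. Their peaks ran around the day, from Nr1d1 at ZT 6.98 ± 0.218 h, Nr1d2 at ZT 9.37 ± 0.222 h and Bhlhe41 at ZT 10.1 ± 0.433 h through Ciart, Per3 and Per1 at ZT 12.3 to ZT 13 to Per2 at ZT 15.9 ± 0.29 h. Cry1 at ZT 19.2 ± 0.227 h, Arntl at ZT 22.2 ± 0.57 h and Npas2 at ZT 23.3 ± 0.346 h followed. The peaks of Ciart, Per3 and Per1 differed by less than the sum of their standard errors, as did those of Per2 and Bhlhe40.

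Arntl and Npas2, the activators with deep rhythms, were highest at ZT 22. Arntl measured 28.4 and 42.7 CPM at ZT 2, 12.5 and 16.4 at ZT 6, 2.05 and 1.28 at ZT 10, 14.9 and 6.69 at ZT 14, 39.8 and 35.2 at ZT 18, and 47 and 39.2 at ZT 22. Both ZT 10 libraries lay below every other library, and those at ZT 22 overlapped with ZT 2 and ZT 18. The fitted amplitude was 1.89 ± 0.28, a peak-to-trough fold of 13.8 (edgeR adjusted p = 0.00562). Npas2, which can take the place of Clock as partner of Arntl, measured 11.6 and 16.1 CPM at ZT 2, 3.11 and 3.74 at ZT 6, 0.233 and 0.158 at ZT 10, 0.244 and 0.134 at ZT 14, 10.9 and 5.39 at ZT 18, and 26.7 and 16.2 at ZT 22. Libraries of ZT 10 and 14 were the lowest, and those of ZT 22 were above all others, replicate 2 only just above ZT 2 replicate 2. The fold was 134 and an amplitude of 3.53 ± 0.34 (edgeR adjusted p = 0.000565). Clock itself had a smaller amplitude, 0.70 ± 0.19, with a peak at ZT 20.4 ± 1.04 h (edgeR adjusted p = 0.0453). It lost its call without the 2 libraries (adjusted p = 0.0707) and without any single one of ZT 6 replicate 2, ZT 22 replicate 1 or the libraries of ZT 10, 14 and 18.

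The repressors of the Per and Cry families peaked from ZT 12.9 to ZT 19.2. Per1 measured 1.87 and 2.17 CPM at ZT 2, 9.31 and 7.78 at ZT 6, 70.8 and 92.4 at ZT 10, 30.8 and 44.2 at ZT 14, 11.5 and 21.1 at ZT 18, and 10.3 and 12.9 at ZT 22. Per3 measured 1.65 and 2.27 CPM at ZT 2, 13.9 and 8.98 at ZT 6, 63.4 and 108 at ZT 10, 45.1 and 54.4 at ZT 14, 25.8 and 22.1 at ZT 18, and 8.24 and 8.68 at ZT 22. Both ZT 10 libraries of each gene lay above all other libraries, although the smooth wave put the peaks near ZT 13. Per2 measured 4.88 and 7.36 CPM at ZT 2, 13.6 and 7.73 at ZT 6, 37.7 and 59 at ZT 10, 169 and 149 at ZT 14, 124 and 168 at ZT 18, and 66.6 and 44.7 at ZT 22. The pairs of ZT 14 and 18 were highest and overlapped each other and no other time. Its amplitude was 2.41 ± 0.18, a fold of 28.3 (edgeR adjusted p = 0.000139). Cry1 measured 12.2 and 19.3 CPM at ZT 2, 4.96 and 6.97 at ZT 6, 6.42 and 8.27 at ZT 10, 37.2 and 30.2 at ZT 14, 69 and 56.3 at ZT 18, and 70.9 and 56 at ZT 22. Levels at ZT 18 and 22 were above all other libraries, and the rhythm had the smallest p of the genes peaking from ZT 18 to 24, with an amplitude of 1.93 ± 0.12 (edgeR adjusted p = 3.44e-05). Cry2 had an amplitude of 0.44 ± 0.10 with a peak at ZT 14.9 ± 0.885 h (edgeR adjusted p = 0.0255). It lost its call without the 2 libraries (adjusted p = 0.102) and without each of ZT 2 replicate 2, ZT 6 replicate 2 and the ZT 18 libraries in turn.

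The nuclear receptors of the second loop peaked at different times of the day. Nr1d1, a repressor of Arntl, measured 42.8 and 57.4 CPM at ZT 2, 161 and 177 at ZT 6, 75.3 and 119 at ZT 10, 6.49 and 14.8 at ZT 14, 2.27 and 1.36 at ZT 18, and 1.84 and 1.71 at ZT 22. Both ZT 6 libraries were above all others and the 4 libraries of ZT 18 and 22 below all others. This was the largest amplitude of any rhythmic gene with a mean of at least 1 CPM, 3.63 ± 0.21, a fold of 153 (edgeR adjusted p = 4.06e-05). Nr1d2, its close relative, measured 19 and 30.5 CPM at ZT 2, 90.5 and 65.6 at ZT 6, 122 and 149 at ZT 10, 42.9 and 61.7 at ZT 14, 19.9 and 16.2 at ZT 18, and 8.85 and 11.1 at ZT 22. Both ZT 10 libraries were above all others, and the amplitude was 1.81 ± 0.11 (edgeR adjusted p = 3.14e-05). Rora, an activator of the same target sites, had an amplitude of 0.59 ± 0.14 at ZT 18.9 ± 0.881 h (edgeR adjusted p = 0.0189), and the call was lost without ZT 6 replicate 2 or ZT 18 replicate 2.

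Ciart, a repressor of the Arntl partners also called Chrono, measured 0.564 and 0.251 CPM at ZT 2, 1.58 and 1.98 at ZT 6, 56.9 and 68 at ZT 10, 17 and 28.7 at ZT 14, 3.38 and 3.88 at ZT 18, and 1.35 and 1.45 at ZT 22. The ZT 10 libraries were above all others, although the fitted peak was at ZT 12.3. The fitted fold was 103 (amplitude 3.34 ± 0.38, edgeR adjusted p = 0.000584). Of the related E-box repressors, Bhlhe41 (Dec2) measured 0.404 and 0.294 CPM at ZT 2, 0.86 and 1.07 at ZT 6, 3.58 and 7.08 at ZT 10, 0.806 and 1.12 at ZT 14, 0.269 and 0.492 at ZT 18, and 0.173 and 0.202 at ZT 22. The ZT 10 pair was above all others, and the amplitude was 2.22 ± 0.26 (edgeR adjusted p = 0.000517). Bhlhe40 (Dec1) had an amplitude of 1.11 ± 0.17 at ZT 16.1 ± 0.586 h (edgeR adjusted p = 0.0042). Of the core genes that were not called, the kinases Csnk1d and Csnk1e phosphorylate Per proteins (edgeR adjusted p = 0.78 and 0.903).

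**Figure D3:**
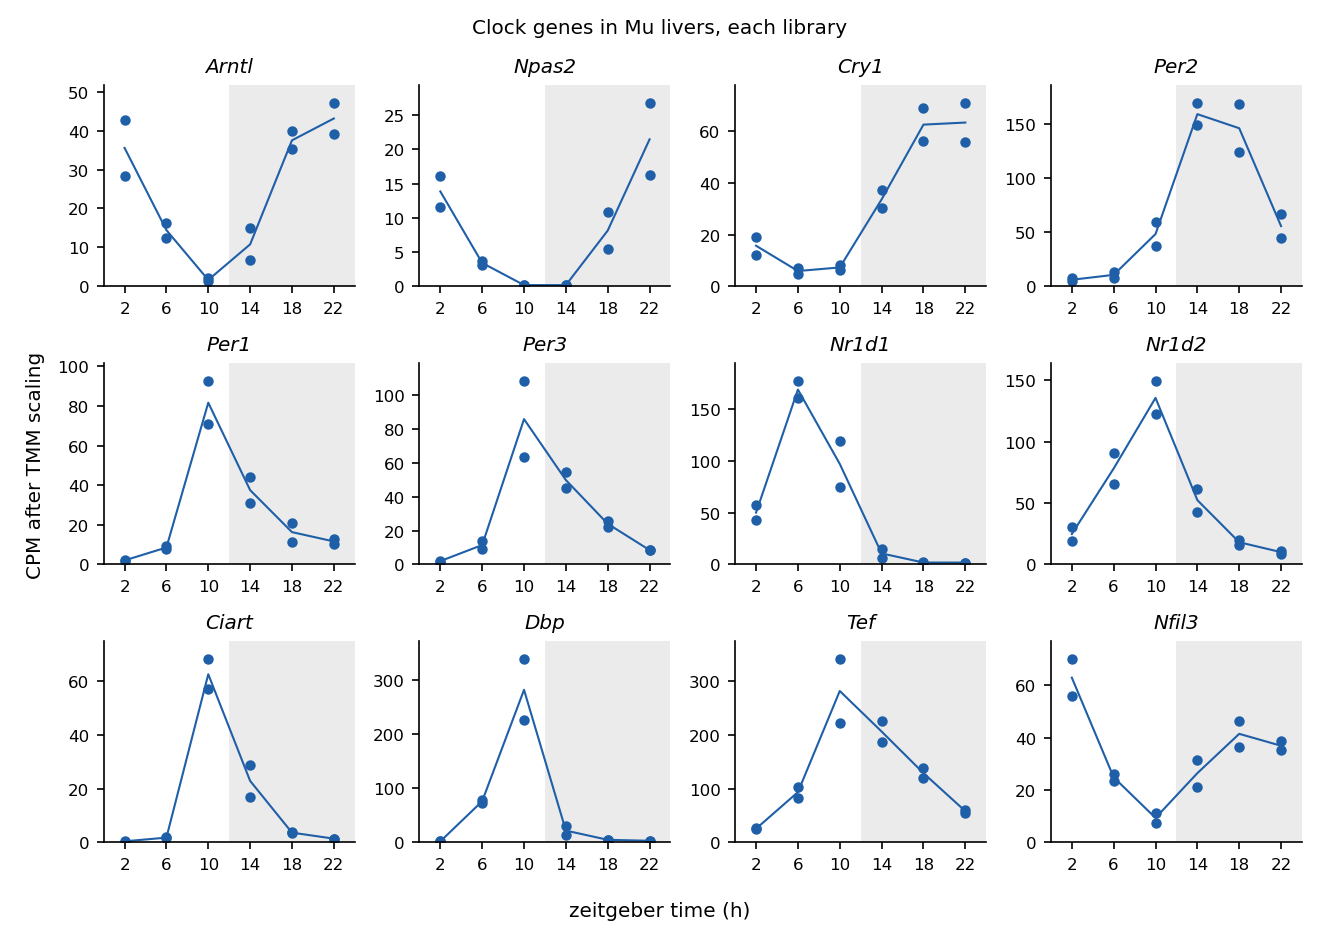
CPM after TMM scaling (y axis) against zeitgeber time in hours (x axis) for 12 clock genes in Mu livers. Points are single libraries, lines join the means of the 2 libraries per time, and grey marks ZT 12 to 24. Nr1d1 is highest at ZT 6 (161 and 177 CPM), Dbp at ZT 10 (226 and 339 CPM) and Arntl lowest at ZT 10 (2.05 and 1.28 CPM).

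Promoter windows show the sequence elements through which the loops are known to act. RefSeq windows of 300 bases around the transcription start on GRCm38.p6, from 250 bases before it to 50 after, were found for 10545 of the 13577 genes. They covered 13 of 18 core clock and 16 of 18 output genes. The windows were searched on both strands for the E-box CACGTG bound by Arntl with its partners, the D-box TTANGTAA bound by Dbp, Tef, Hlf and Nfil3, and the ROR element TAGGTCA bound by Nr1d and Ror receptors. They were also searched for the heat shock element (GAA, TTC and GAA units in a row, each set apart by 2 bases) and the sterol regulatory element TCACNCCAC. Of 32851 windows of this length, 7.15% held the E-box, 2.32% the D-box, 2.61% the ROR element, 0.603% the heat shock element and 1.24% the sterol element. An E-box was in the windows of 4 of 13 core clock genes (30.8%). These were Ciart, with 3, Per1, Bhlhe41 and Cry1, whose transcripts peaked at ZT 12.3, ZT 13, ZT 10.1 and ZT 19.2. Per3 was the single core clock gene with a D-box, holding 2, and Arntl the single one with a ROR element. Windows of 4 genes are shown with the motif in capitals, 5′ to 3′ along the gene's strand. They are Ciart at chr3:95882179-95882478 (minus strand), Per1 at chr11:69098699-69098998 (plus), Per3 at chr4:151044616-151044915 (minus) and Arntl at chr7:113207261-113207560 (plus).
Ciart: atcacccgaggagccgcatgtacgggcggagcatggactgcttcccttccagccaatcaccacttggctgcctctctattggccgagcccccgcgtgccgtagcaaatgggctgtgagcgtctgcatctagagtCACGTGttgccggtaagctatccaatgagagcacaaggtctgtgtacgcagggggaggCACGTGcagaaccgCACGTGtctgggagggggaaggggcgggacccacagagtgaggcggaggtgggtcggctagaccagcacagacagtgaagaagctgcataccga
Per1: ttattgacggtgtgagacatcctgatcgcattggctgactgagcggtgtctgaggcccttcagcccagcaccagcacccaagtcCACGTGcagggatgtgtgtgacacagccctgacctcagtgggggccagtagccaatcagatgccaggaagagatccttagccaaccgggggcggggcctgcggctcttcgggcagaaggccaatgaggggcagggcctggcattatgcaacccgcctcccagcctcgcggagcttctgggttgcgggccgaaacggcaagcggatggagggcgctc
Per3: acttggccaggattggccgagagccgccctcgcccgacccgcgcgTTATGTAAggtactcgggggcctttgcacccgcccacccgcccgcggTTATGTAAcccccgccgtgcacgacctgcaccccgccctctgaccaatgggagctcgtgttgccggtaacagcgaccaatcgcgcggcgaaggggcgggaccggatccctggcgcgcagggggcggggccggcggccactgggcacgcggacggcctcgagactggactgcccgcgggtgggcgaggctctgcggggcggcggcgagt
Arntl: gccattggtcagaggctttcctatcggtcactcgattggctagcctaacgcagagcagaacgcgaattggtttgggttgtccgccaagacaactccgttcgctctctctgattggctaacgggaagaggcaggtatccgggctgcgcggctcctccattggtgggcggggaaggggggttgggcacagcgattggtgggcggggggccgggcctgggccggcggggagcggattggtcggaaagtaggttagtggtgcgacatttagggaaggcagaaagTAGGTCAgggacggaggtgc
A match is a description of these letters and not a measured binding site. Over all genes tested with a window, 11.5% held an E-box, against 12.9% of the rhythmic ones. By peak time it was 12% from ZT 0 to 6, 15.1% from ZT 6 to 12, 13.4% from ZT 12 to 18 and 11.1% from ZT 18 to 24. The D-box was held by 1.95% of all, 2.03% of the rhythmic ones and 0 of the 16 output genes. By peak time it was 1.38% from ZT 0 to 6, 1.26% from ZT 6 to 12, 3.76% from ZT 12 to 18 and 1.23% from ZT 18 to 24. The sterol element was held by 1.45% of all and by 1 of 17 sterol genes with a window. The ROR element was held by 2.48% of all, 3.9% of those peaking from ZT 0 to 6, 3% from ZT 6 to 12, 2.32% from ZT 12 to 18 and 2.77% from ZT 18 to 24.

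The regulators downstream of the clock were rhythmic in 16 of 18 members (88.9% against 28.9%), all 16 in all 3 fits, with a median amplitude of 1.02. Dbp, Tef and Hlf, transcription factors that bind D-boxes, differed in the depth of their rhythm. Dbp measured 1.74 and 2.07 CPM at ZT 2, 73.4 and 79.1 at ZT 6, 226 and 339 at ZT 10, 13.2 and 30.6 at ZT 14, 5.15 and 4.55 at ZT 18, and 2.77 and 3.23 at ZT 22. The ZT 10 pair was above all others, and the ZT 2 pair was lowest, with an amplitude of 3.39 ± 0.36 and a peak at ZT 9.71 ± 0.401 h (edgeR adjusted p = 0.000506). Tef peaked later, at ZT 12.7 ± 0.383 h, with an amplitude of 1.53 ± 0.15, and Hlf at ZT 14.5 ± 0.367 h with an amplitude of 0.85 ± 0.08 (edgeR adjusted p = 0.0005 and 0.000321). Nfil3, which represses the same D-boxes, measured 69.9 and 55.9 CPM at ZT 2, 26.3 and 23.4 at ZT 6, 7.31 and 11.4 at ZT 10, 31.6 and 21.3 at ZT 14, 46.3 and 36.6 at ZT 18, and 35.2 and 38.6 at ZT 22. The fitted peak was at ZT 22.6 ± 0.775 h, although the ZT 22 pair was below the ZT 2 pair. Libraries of ZT 2 were above and those of ZT 10 below all others. The fitted peak-to-trough fold of Nfil3 was 4 (edgeR adjusted p = 0.0181, not called without ZT 10 replicate 2). Its window at chr13:52980990-52981289 (minus strand, 5′ to 3′) also held a ROR element, in capitals as read on the reverse strand.
Nfil3: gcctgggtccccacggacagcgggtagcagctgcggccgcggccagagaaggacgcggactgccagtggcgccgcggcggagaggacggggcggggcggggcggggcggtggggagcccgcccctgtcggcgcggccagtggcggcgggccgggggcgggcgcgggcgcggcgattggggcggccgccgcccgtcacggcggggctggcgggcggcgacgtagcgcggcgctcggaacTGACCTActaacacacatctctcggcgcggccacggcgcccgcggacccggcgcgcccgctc

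Of the 16, 10 peaked between ZT 12 and 16. Among all 3928 rhythmic genes, 188 peaked from ZT 12 to 14 and 327 from ZT 14 to 16. Usp2, a deubiquitinase, measured 1.37 and 1.74 CPM at ZT 2, 1.4 and 1.67 at ZT 6, 67 and 69.1 at ZT 10, 41.3 and 67.2 at ZT 14, 8.39 and 14.5 at ZT 18, and 2.81 and 4.52 at ZT 22. Libraries of ZT 10 and 14 were above all others, and the amplitude was 2.91 ± 0.34 (edgeR adjusted p = 0.000919). Wee1, a kinase that holds back entry into mitosis, had an amplitude of 1.45 ± 0.20 at ZT 13.6 ± 0.521 h (edgeR adjusted p = 0.00189). Nampt, the rate-limiting enzyme of NAD salvage, had an amplitude of 0.97 ± 0.11 at ZT 14.4 ± 0.435 h, and Lpin1, a phosphatidate phosphatase, one of 1.18 ± 0.18 at ZT 14.3 ± 0.589 h (edgeR adjusted p = 0.000602 and 0.0038). Klf15, Klf10 and Tspan4 peaked at ZT 12, ZT 16 and ZT 15.3, with amplitudes of 0.46, 0.97 and 0.47, and Tspan4 lost its call without ZT 6 replicate 2 or either ZT 14 library. Ppard, a nuclear receptor for fatty acids, measured 56.6 and 61.6 CPM at ZT 2, 9.01 and 12.5 at ZT 6, 9.91 and 11.2 at ZT 10, 27.5 and 16 at ZT 14, 64 and 63.1 at ZT 18, and 80.8 and 83.1 at ZT 22. Both ZT 22 libraries were above all others and the ZT 6 and 10 libraries below, with an amplitude of 1.68 ± 0.13 at ZT 21.3 ± 0.3 h (edgeR adjusted p = 0.000122). Leo1, a subunit of the PAF1 transcription elongation complex, peaked at ZT 21.2 ± 0.7 h with an amplitude of 0.69 ± 0.13 (edgeR adjusted p = 0.00896). Noct, a deadenylase-like protein (adjusted p = 0.163), and Klf9, a transcription factor (adjusted p = 0.875), were not called by edgeR.

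The nearest comparison was with the mouse genes of the 15 Hu livers, in which the mouse counts come from the cells of the host. In a joint edgeR fit of 27 livers the rhythm differed for 192 of 14977 genes (1.28%), and for 20 without the 2 libraries, all 20 of them among the 192. Mu livers had the larger amplitude in 176 of the 187 that were also tested in Mu livers alone. Over all 13576 genes with both values the Hu amplitude was the smaller one in 63.2%. The CPM given next were scaled within each arm, so their levels do not compare between arms. Nckap5, which encodes an NCK-associated protein, measured 5.23 and 10.7 CPM at ZT 2, 5.85 and 4.26 at ZT 6, 0.749 and 0.86 at ZT 10, 0.412 and 0.747 at ZT 14, 1.52 and 1.03 at ZT 18, and 9.5 and 5.57 at ZT 22 in Mu livers. All Mu libraries of ZT 2, 6 and 22 were above those of ZT 10, 14 and 18. In Hu livers it ranged from 1.84 to 4.96 CPM around a median of 2.45 CPM. The amplitude was 2.17 in Mu against 0.30 in Hu livers in the joint fit (edgeR adjusted p = 0.000209 for the difference, 7.68e-05 without the 2 libraries). Ppard, given above for Mu livers, ranged from 16.4 to 38.5 CPM in Hu livers, with an amplitude of 0.23 against 1.66 (edgeR adjusted p = 0.000732, or 0.00277 without the 2). Lrp4, a receptor of the LDL receptor family, measured 12.2 and 17.4 CPM at ZT 2, 19.1 and 13.5 at ZT 6, 38.2 and 44.3 at ZT 10, 45.4 and 52.7 at ZT 14, 37.6 and 38.3 at ZT 18, and 24.2 and 21.6 at ZT 22 in Mu livers. All libraries of ZT 10, 14 and 18 were above the rest. In Hu livers it ranged from 37.1 to 56 CPM, and the amplitudes were 0.93 in Mu and 0.10 in Hu livers (edgeR adjusted p = 0.0018, or 0.00492).

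The joint test covers amplitude and peak time together. Among the 36 core clock and output genes 12 differed, 3 of them also without the 2 libraries. The 3 were Ppard, Cry1, with amplitudes of 1.91 in Mu and 0.78 in Hu livers (edgeR adjusted p = 0.00622, or 0.022 without the 2), and Por, with 1.27 and 0.13 (0.0132, or 0.0369). The others were Per2, Wee1, Alas1, Nr1d2, Nr1d1, Usp2, Npas2, Bhlhe40 and Tsc22d3, whose adjusted p was between 0.018 and 0.0498 and rose to between 0.0559 and 0.125 without the 2. The mouse counts of Hu livers come from another mix of cells than those of Mu livers, so cell type and rhythm cannot be told apart in this comparison. In the joint fit, where both arms share 1 estimate of the spread, 2598 of 14977 genes (17.3%) were rhythmic in Mu livers.

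Bile acid genes were rhythmic in 11 of 26 members (42.3% against 28.9% of all genes, 9 in all 3 fits). The median amplitude of the list was 0.33 against 0.25 over all genes. Cyp7a1, the rate-limiting enzyme of bile acid synthesis, measured 1.74 and 9.75 CPM at ZT 2, 48.8 and 6.57 at ZT 6, 84.4 and 75.9 at ZT 10, 166 and 418 at ZT 14, 23.3 and 34 at ZT 18, and 5.97 and 14.4 at ZT 22. Both ZT 14 libraries were above all others, though they differed from each other by more than 2-fold, and the libraries of ZT 2 and 22 and ZT 6 replicate 2 were at 14.4 CPM or less. The amplitude was 2.63 ± 0.38, a peak-to-trough fold of 38.3, with a peak at ZT 12.8 ± 0.554 h (edgeR adjusted p = 0.00265). Nr1h4, the bile acid receptor FXR, peaked at ZT 12.2 ± 0.497 h with an amplitude of 0.43 ± 0.06, and Akr1d1, a later enzyme of the pathway, at ZT 17.3 ± 0.531 h with an amplitude of 0.88 ± 0.12 (edgeR adjusted p = 0.00113 and 0.00177). Hsd3b7, another enzyme of the pathway, was high at another time than Cyp7a1, at ZT 2.68 ± 0.449 h with an amplitude of 0.68 ± 0.08 (edgeR adjusted p = 0.000734). It measured 768 and 657 CPM at ZT 2, 672 and 772 at ZT 6, 368 and 396 at ZT 10, 301 and 238 at ZT 14, 383 and 425 at ZT 18, and 514 and 500 at ZT 22. All 4 libraries of ZT 2 and 6 were above the other 8. Abcb11, the export pump for bile salts, named after its values were seen, peaked at ZT 0.272 ± 0.789 h with an amplitude of 0.57 ± 0.12 (edgeR adjusted p = 0.0168, 0.0505 without ZT 14 replicate 2). The lipid transfer protein gene Scp2 and the uptake carrier Slco1b2 were not called (adjusted p = 0.392 and 0.0588). The count of 11 became 18 without ZT 6 replicate 1, 7 without ZT 14 replicate 2 and 3 in the joint fit with Hu livers. With library totals the calls divided into 7 before and 5 after ZT 12, against 4 and 7.

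Sterol genes were rhythmic in 6 of 25 (24%, below the 28.9% of all genes), 2 of them in all 3 fits. Insig1, which holds the sterol sensor in the endoplasmic reticulum, was not called (adjusted p = 0.0557), nor was Fdps, an enzyme of isoprenoid synthesis (0.897). The count of 6 fell to between 1 and 3 without any one of ZT 10 replicate 1 or the libraries of ZT 14, 18 and 22, to 3 with the offsets and to 1 in the joint fit with Hu livers.

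Genes of fatty acid and triglyceride synthesis were rhythmic in 13 of 22 (59.1% against 28.9% of all genes, 10 in all 3 fits). The median amplitude of the list was 0.57. Of the 13, 11 peaked after ZT 12, as did 1994 of all 3928 rhythmic genes. Thrsp, a lipogenic protein induced by carbohydrate feeding, measured 203 and 232 CPM at ZT 2, 225 and 418 at ZT 6, 318 and 1362 at ZT 10, 2225 and 1838 at ZT 14, 1234 and 1229 at ZT 18, and 935 and 792 at ZT 22. Both ZT 14 libraries were above all others, and the ZT 10 libraries differed by 4-fold, with replicate 1 the lower. Its amplitude was 1.51 ± 0.22 at ZT 15.6 ± 0.555 h (edgeR adjusted p = 0.00325). Srebf1, the transcription factor that drives these genes, measured 250 and 331 CPM at ZT 2, 219 and 359 at ZT 6, 249 and 580 at ZT 10, 1335 and 971 at ZT 14, 626 and 853 at ZT 18, and 728 and 789 at ZT 22. The ZT 14 pair was above all others, and the amplitude was 1.02 ± 0.18 at ZT 16.8 ± 0.661 h (edgeR adjusted p = 0.0068). Fasn, the fatty acid synthase, named after its values were seen, ranged from 281 to 4796 CPM and peaked at ZT 18.1 ± 0.753 h with an amplitude of 1.39 ± 0.27 (edgeR adjusted p = 0.0119). Insig2, a second retention protein of the sterol sensor, was high at other times and measured 681 and 642 CPM at ZT 2, 527 and 477 at ZT 6, 157 and 145 at ZT 10, 203 and 130 at ZT 14, 547 and 441 at ZT 18, and 726 and 537 at ZT 22. The libraries of ZT 10 and 14 were below all others, with the crest between ZT 22 and 2, and the amplitude was 1.17 ± 0.15 (edgeR adjusted p = 0.00166). Dgat2, which makes triglycerides, peaked at ZT 14 ± 0.488 h with an amplitude of 0.56 ± 0.07 (edgeR adjusted p = 0.000959). The desaturases Scd1, between 8505 and 26911 CPM, and Fads1 were not called (adjusted p = 0.265 and 0.535).

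Fatty acid oxidation and ketogenesis stood near the background, with 8 of 35 genes rhythmic (22.9% against 28.9%, 6 in all 3 fits). Of the 8, 6 peaked before ZT 12, as did 49.2% of all rhythmic genes. Cpt1a, which admits fatty acids to mitochondria, measured 241 and 262 CPM at ZT 2, 441 and 298 at ZT 6, 467 and 441 at ZT 10, 361 and 478 at ZT 14, 207 and 242 at ZT 18, and 201 and 179 at ZT 22. The ZT 18 and 22 libraries were among the lowest, and the amplitude was 0.66 ± 0.08 at ZT 10 ± 0.463 h (edgeR adjusted p = 0.000834). Plin2, a coat protein of lipid droplets, had an amplitude of 0.79 ± 0.15 at ZT 2.79 ± 0.719 h (edgeR adjusted p = 0.00906), with its highest value, 1270 CPM, in ZT 2 replicate 1, and was not called without the 2 libraries (adjusted p = 0.0614). The thioesterases Acot4 and Acot3, which share sequence and may share reads, peaked at ZT 14.9 and ZT 14.4 with amplitudes of 0.75 and 1.54. The count of 8 fell to 5 without ZT 6 replicate 2 or ZT 22 replicate 1 and to 3 in the joint fit with Hu livers, and rose to 13 with library totals.

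Glucose and glycogen genes were rhythmic in 13 of 27 (48.1% against 28.9% of all genes, 9 in all 3 fits). Peaks after ZT 12 were found for 10 of the 13, and for 1994 of all 3928 rhythmic genes. Ppp1r3b, a subunit that brings a protein phosphatase to glycogen, measured 124 and 198 CPM at ZT 2, 99.6 and 110 at ZT 6, 69.5 and 102 at ZT 10, 864 and 735 at ZT 14, 677 and 721 at ZT 18, and 536 and 542 at ZT 22. The 6 libraries from ZT 14 to 22 were all above the other 6, with a fold of 11.1 and a peak at ZT 18 ± 0.451 h (edgeR adjusted p = 0.000986). Ppp1r3c, another such subunit, was lowest at ZT 10, with an amplitude of 1.07 ± 0.13 at ZT 21.3 ± 0.478 h (edgeR adjusted p = 0.00138). Gys2, liver glycogen synthase, measured 89.1 and 97.3 CPM at ZT 2, 140 and 109 at ZT 6, 254 and 294 at ZT 10, 222 and 229 at ZT 14, 139 and 181 at ZT 18, and 137 and 122 at ZT 22. Its ZT 10 pair was above all others, and its amplitude was 0.70 ± 0.10 at ZT 12.8 ± 0.539 h (edgeR adjusted p = 0.00189). Slc37a4, which carries glucose 6-phosphate for glucose release, peaked at ZT 13.8 ± 0.54 h with an amplitude of 0.60 ± 0.08 (edgeR adjusted p = 0.00166). Pck1, an enzyme of glucose synthesis named after its values were seen, measured 727 and 310 CPM at ZT 2, 1587 and 833 at ZT 6, 2160 and 2172 at ZT 10, 354 and 1238 at ZT 14, 365 and 230 at ZT 18, and 286 and 875 at ZT 22. Replicates at ZT 2, 14 and 22 differed by over 2-fold, and the call (edgeR adjusted p = 0.0301) was lost by DESeq2, in the joint fit with Hu livers and without either library of ZT 10 or 18 or ZT 22 replicate 1. Glycogen phosphorylase, Pygl, and the gluconeogenic Fbp1 were not called (adjusted p = 0.0879 and 0.696). In the joint fit with Hu livers the count of 13 fell to 4.

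Amino acid breakdown and the urea cycle were rhythmic in 17 of 35 (48.6% against 28.9% of all genes, 13 in all 3 fits). Of the 17, 15 peaked after ZT 12, as did 1994 of all 3928 rhythmic genes. Ahcy, which clears S-adenosylhomocysteine, measured 437 and 401 CPM at ZT 2, 382 and 350 at ZT 6, 373 and 489 at ZT 10, 838 and 711 at ZT 14, 851 and 737 at ZT 18, and 610 and 600 at ZT 22. All libraries from ZT 14 to 22 were above the rest, and the amplitude was 0.61 ± 0.07 at ZT 17.3 ± 0.414 h (edgeR adjusted p = 0.000506). Afmid, of tryptophan breakdown, had an amplitude of 0.64 ± 0.07 at ZT 17.3 ± 0.438 h, and Gpt2, an alanine transaminase, one of 0.62 ± 0.07 at ZT 14.6 ± 0.453 h (edgeR adjusted p = 0.000605 and 0.000666). Cbs, the first enzyme of transsulfuration, peaked apart from them, at ZT 2.02 ± 0.519 h with an amplitude of 0.53 ± 0.07 (edgeR adjusted p = 0.0017). Ass1 of the urea cycle and Hpd of tyrosine breakdown, the step that nitisinone blocks, were not called (adjusted p = 0.236 and 0.415). Levels of Hpd ran from 1523 to 2718 CPM, highest in ZT 2 replicate 1. In the joint edgeR fit with Hu livers 0 of 35 were called, against 17.3% of all genes in that fit, 2 had an unadjusted p under 0.05, and the smallest adjusted p was 0.065.

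Drug-metabolising genes were rhythmic in 16 of 40 (40% against 28.9% of all genes, 14 in all 3 fits). After ZT 12 peaked 14 of the 16, as did 1994 of all 3928 rhythmic genes. Ces1d, a carboxylesterase, measured 479 and 352 CPM at ZT 2, 188 and 280 at ZT 6, 430 and 506 at ZT 10, 1278 and 1073 at ZT 14, 1151 and 1030 at ZT 18, and 850 and 699 at ZT 22. Its libraries of ZT 14, 18 and 22 were all above those of ZT 2, 6 and 10, with a fold of 4.81 at ZT 17.2 ± 0.373 h (edgeR adjusted p = 0.000437). Cyp2b10, the cytochrome P450 that marks activity of the receptor CAR, measured 29.7 and 24.9 CPM at ZT 2, 11.9 and 16.5 at ZT 6, 18.5 and 10.1 at ZT 10, 53.9 and 54.3 at ZT 14, 76 and 61.3 at ZT 18, and 41 and 44.4 at ZT 22. The ZT 18 pair was above all others, and the amplitude was 1.19 ± 0.14 (edgeR adjusted p = 0.000805). Fmo5, a flavin monooxygenase, and Cyp3a13 peaked at ZT 17.1 and ZT 17.6 with amplitudes of 0.81 and 0.59. Por, the reductase that feeds electrons to P450 enzymes, measured 103 and 76.2 CPM at ZT 2, 117 and 111 at ZT 6, 379 and 350 at ZT 10, 426 and 585 at ZT 14, 203 and 175 at ZT 18, and 89.2 and 138 at ZT 22. Both ZT 14 libraries were above all others and the amplitude was 1.27 ± 0.13 at ZT 13.2 ± 0.379 h (edgeR adjusted p = 0.000321). The abundant Cyp2e1, between 4219 and 6886 CPM, and Gstm1 were not called (edgeR adjusted p = 0.0701 and 0.176). The count of 16 fell to 10 without ZT 18 replicate 2 and to 1 in the joint fit with Hu livers.

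Haem genes were rhythmic in 5 of 12 (41.7% against 28.9% of all genes, 3 in all 3 fits). Alas1, the rate-limiting enzyme of haem synthesis, measured 46.2 and 58.9 CPM at ZT 2, 112 and 91.1 at ZT 6, 544 and 200 at ZT 10, 357 and 447 at ZT 14, 192 and 319 at ZT 18, and 126 and 111 at ZT 22. Its highest value was in ZT 10 replicate 1, and the other ZT 10 library was lower than those of ZT 14. The amplitude was 1.48 ± 0.17 at ZT 13.8 ± 0.436 h (edgeR adjusted p = 0.0008). Cpox, a later enzyme, peaked at ZT 18.6 and Hmox1, which breaks haem down, at ZT 23.2, and their amplitudes were 0.38 and 0.40 (edgeR adjusted p = 0.0134, not called without ZT 18 replicate 2, and 0.017). The enzymes Alad and Fech were not called (adjusted p = 0.8 and 0.353). The count of 5 fell to 3 without ZT 6 replicate 2, either ZT 14 library or ZT 22 replicate 1. It was 2 without ZT 18 replicate 2 and in the joint fit with Hu livers. With the offsets or added 12 h terms it was 3, and with library totals 8.

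**Figure D4:**
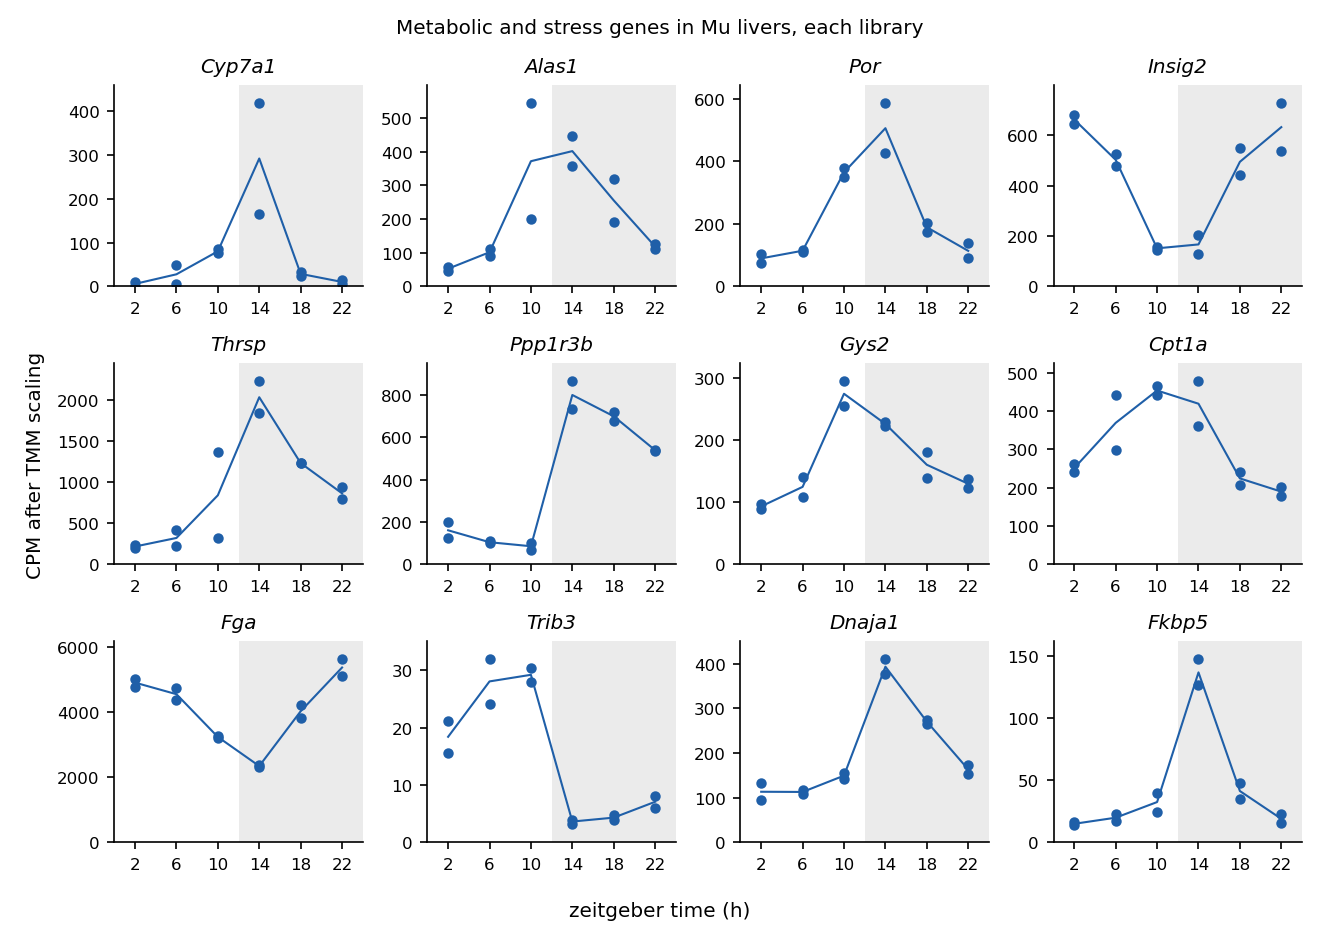
CPM after TMM scaling (y axis) against zeitgeber time in hours (x axis) for 12 metabolic and stress genes in Mu livers. Points are single libraries, lines join the means of the 2 libraries per time, and grey marks ZT 12 to 24. Cyp7a1 is highest at ZT 14 (166 and 418 CPM), Insig2 lowest at ZT 10 and 14 (130 to 203 CPM) and Trib3 high from ZT 2 to 10 (15.6 to 31.9 CPM).

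Heat shock and temperature-responsive genes were rhythmic in 21 of 24 (87.5% against 28.9% of all genes, 17 in all 3 fits). The median amplitude of the list was 0.66. Of the 21, 20 peaked after ZT 12, as did 1994 of all 3928 rhythmic genes. Dnaja1, a co-chaperone of Hsp70, measured 93.9 and 133 CPM at ZT 2, 118 and 108 at ZT 6, 156 and 143 at ZT 10, 410 and 377 at ZT 14, 275 and 266 at ZT 18, and 154 and 173 at ZT 22. The ZT 14 pair was above all others, followed by the ZT 18 pair, and the amplitude was 0.90 ± 0.10 at ZT 15.7 ± 0.439 h (edgeR adjusted p = 0.000559). Chordc1 and Fkbp4, both partners of Hsp90, peaked at ZT 17.4 ± 0.475 h and ZT 18.7 ± 0.466 h at amplitudes 0.91 ± 0.11 and 0.64 ± 0.08, respectively (edgeR adjusted p = 0.000899 and 0.0008). The chaperones Hspa8 and Hsp90aa1, named after their values were seen, ranged from 166 to 1157 CPM and from 63.6 to 549.5 CPM, and peaked at ZT 15.6 and ZT 18. Their amplitudes were 1.20 and 1.18 (edgeR adjusted p = 0.00139 and 0.00323). Rbm3, an RNA-binding protein induced by mild cold, peaked at ZT 13.1 ± 0.496 h with an amplitude of 0.47 ± 0.06 (edgeR adjusted p = 0.00105). Cirbp, the other cold-inducible RNA-binding protein and the single member with a peak before ZT 12, was named after its values were seen and measured 72.1 and 34.2 CPM at ZT 2, 31.8 and 62.9 at ZT 6, 43.9 and 52.3 at ZT 10, 15.2 and 14 at ZT 14, 12.1 and 10 at ZT 18, and 17.5 and 20.1 at ZT 22. All libraries of ZT 2, 6 and 10 were above those of ZT 14, 18 and 22, and the amplitude was 1.27 ± 0.16 at ZT 5.58 ± 0.485 h (edgeR adjusted p = 0.00151). Hspe1 and the heat shock factor Hsf1 were not called (adjusted p = 0.659 and 0.973).

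The heat shock element was in the windows of 4 of 19 heat shock genes with a window (21.1%, against 0.512% of all genes tested), Chordc1, Hsph1, Hspd1 and Hspe1. Hspd1 and Hspe1 start head to head, so that their windows overlap and share the same 2 matches, and Hspe1 was not called rhythmic (edgeR adjusted p = 0.659). Chordc1 held 3 overlapping copies at its start, at chr9:18292017-18292316 (plus strand, 5′ to 3′), shown in capitals beside its peak at ZT 17.4.
Chordc1: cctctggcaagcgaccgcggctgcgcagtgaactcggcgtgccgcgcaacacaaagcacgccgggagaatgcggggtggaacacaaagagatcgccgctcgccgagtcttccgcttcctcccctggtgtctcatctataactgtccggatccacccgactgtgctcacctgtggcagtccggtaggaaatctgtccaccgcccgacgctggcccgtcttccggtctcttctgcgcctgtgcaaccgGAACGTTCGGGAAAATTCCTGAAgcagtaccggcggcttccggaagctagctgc

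The unfolded protein response, by which the endoplasmic reticulum raises its folding capacity, was rhythmic in 23 of 33 genes (69.7%, against 28.9% of all). Of these, 20 were called in all 3 fits, and the median amplitude of the list was 0.44. Of the 23, 15 peaked from ZT 18 to 24, as did 816 of all 3928 rhythmic genes. Hspa5, the main chaperone of the endoplasmic reticulum, named after its values were seen, ranged from 421 to 1472 CPM and peaked at ZT 21.2 ± 0.721 h with an amplitude of 0.67 ± 0.13 (edgeR adjusted p = 0.00849). Manf, a secreted stress protein, measured 150 and 135 CPM at ZT 2, 116 and 110 at ZT 6, 65.3 and 60.7 at ZT 10, 62.6 and 63.8 at ZT 14, 80.4 and 179 at ZT 18, and 139 and 193 at ZT 22. The ZT 18 replicates differed by over 2-fold, and the amplitude was 0.75 ± 0.12 at ZT 23.5 ± 0.627 h (edgeR adjusted p = 0.00509). Syvn1, a ubiquitin ligase of misfolded proteins, peaked at ZT 21.3 ± 0.569 h with an amplitude of 0.65 ± 0.10 (edgeR adjusted p = 0.00276). Trib3, a target of the ATF4 branch, peaked at ZT 6.02 ± 0.441 h and measured 21.2 and 15.6 CPM at ZT 2, 24.2 and 31.9 at ZT 6, 28 and 30.4 at ZT 10, 3.28 and 3.99 at ZT 14, 4.82 and 3.82 at ZT 18, and 8.13 and 6.03 at ZT 22. Its libraries of ZT 2, 6 and 10 were above those of the other times, with a fold of 9.49 (edgeR adjusted p = 0.0008). Sec61b, a subunit of the translocon, peaked at ZT 5.81 ± 0.661 h with an amplitude of 0.45 ± 0.08. Hsp90b1 and Xbp1 were not called (edgeR adjusted p = 0.0988 and 0.72). The count of 23 fell to 14 or 15 without ZT 6 replicate 2, ZT 22 replicate 2 or any library of ZT 10 or 14.

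Glucocorticoid-responsive genes were rhythmic in 11 of 19 (57.9% against 28.9% of all genes, 10 in all 3 fits). Of the 11, Per1 is also in the core clock list, and Tsc22d3 and Klf15 are also output regulators. Dusp1 is also in the immediate early list, and Tat and Tdo2 are also in the amino acid list. Fkbp5, a negative regulator of the receptor, measured 13.7 and 16.2 CPM at ZT 2, 22.5 and 17.2 at ZT 6, 40 and 24.8 at ZT 10, 126 and 147 at ZT 14, 47.5 and 35 at ZT 18, and 15.2 and 22.7 at ZT 22. The ZT 14 pair was above all other libraries by over 2-fold, and the amplitude was 1.44 ± 0.20 at ZT 14.2 ± 0.527 h (edgeR adjusted p = 0.00115). Tsc22d3, also called Gilz, had an amplitude of 1.04 ± 0.11 at ZT 16.7 ± 0.419 h, and Dusp1, a phosphatase of MAP kinases, one of 1.09 ± 0.17 at ZT 18 ± 0.582 h (edgeR adjusted p = 0.000602 and 0.00332). Tat, a tyrosine transaminase, measured 703 and 708 CPM at ZT 2, 980 and 762 at ZT 6, 1244 and 1156 at ZT 10, 1634 and 1581 at ZT 14, 1851 and 1764 at ZT 18, and 1478 and 2109 at ZT 22. All libraries of ZT 14, 18 and 22 were above the rest, and the amplitude was 0.66 ± 0.11 (edgeR adjusted p = 0.00524). The receptor itself, Nr3c1, and Errfi1 were not called (adjusted p = 0.0555 and 0.0561). The count of 11 fell to 7 without ZT 14 replicate 2 or ZT 18 replicate 2. Immediate early genes were rhythmic in 5 of 21 (23.8%, below the 28.9% of all genes), and 2, Dusp1 and Jun, in all 3 fits. Jun had an amplitude of 0.74 ± 0.14 at ZT 17.1 ± 0.712 h (edgeR adjusted p = 0.00757). The count of 5 became 8 without ZT 2 replicate 2, 2 without replicate 2 of ZT 6, 10, 14 or 18, and 3 without either ZT 22 library.

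Autophagy genes were rhythmic in 7 of 20 (35%, near the 28.9% of all genes, 5 in all 3 fits). Of the 7, 6 peaked before ZT 12, as did 49.2% of all rhythmic genes. Gabarapl1, which coats the forming autophagosome, measured 400 and 327 CPM at ZT 2, 400 and 420 at ZT 6, 335 and 324 at ZT 10, 206 and 205 at ZT 14, 218 and 173 at ZT 18, and 192 and 196 at ZT 22. All libraries of ZT 2, 6 and 10 were above those of the other times, and the amplitude was 0.62 ± 0.07 at ZT 5.87 ± 0.426 h (edgeR adjusted p = 0.000549). Map1lc3b (LC3B) and Wipi2 peaked at ZT 7.62 and ZT 6.57 with amplitudes of 0.32 and 0.25. Bnip3, a receptor for mitochondrial autophagy, peaked apart from them at ZT 12.9 ± 0.387 h with an amplitude of 0.65 ± 0.07 (edgeR adjusted p = 0.000423). The lysosomal membrane genes Lamp1 and Lamp2 were not called (adjusted p = 0.991 and 0.239). In the joint fit with Hu livers 1 of the 7 was called.

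Cytosolic ribosomal protein genes were rhythmic in 12 of 82 (14.6%, below the 28.9% of all genes), all 12 with peaks from ZT 4.73 to ZT 7.16, and 1 in all 3 fits. With library totals and no composition scaling 74 were called, all with peaks before ZT 12, so the count rests on the scaling. The one called in all 3 fits was Rpl22l1, which measured 46.3 and 27.9 CPM at ZT 2, 42.2 and 49.3 at ZT 6, 36.6 and 51.7 at ZT 10, 34 and 28.7 at ZT 14, 30.9 and 26.3 at ZT 18, and 29.3 and 27.3 at ZT 22. ZT 2 replicate 2 overlapped with ZT 14 to 22, and the amplitude was 0.39 ± 0.09 (edgeR adjusted p = 0.02, not called without ZT 6 replicate 2 or ZT 18 replicate 2). The highest and next highest summed levels of the list, 20990 and 17440 CPM, were in the 2 libraries that stood apart, and the count was 12 of 82 without them and 2 of 82 with offsets. It became 51, 67 and 62 without ZT 2 replicate 1, ZT 2 replicate 2 and ZT 6 replicate 1, and 0 to 2 without any other library but ZT 10 replicate 1, without which it was 9. Rps2 and Rpl4 were not called (adjusted p = 0.172 and 0.735).

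Ribosome assembly factors were rhythmic in 12 of 28 (42.9% against 28.9% of all genes, 5 in all 3 fits). Of the 12, 8 peaked from ZT 12 to 18, as did 1178 of all 3928 rhythmic genes. Nolc1 and Nop2, nucleolar proteins of rRNA synthesis and maturation, peaked at ZT 16.9 ± 0.612 h and ZT 15.5 ± 0.719 h at amplitudes 0.67 ± 0.11 and 0.49 ± 0.09, respectively (edgeR adjusted p = 0.00376 and 0.00771). Nop2 measured 15.1 and 15.5 CPM at ZT 2, 14.1 and 15.4 at ZT 6, 20.7 and 15.8 at ZT 10, 30.9 and 33.1 at ZT 14, 18.2 and 25.5 at ZT 18, and 19.2 and 19.4 at ZT 22. Both ZT 14 libraries were above all others. With library totals the 12 calls of this list divided into 6 before and 6 after ZT 12, against 4 and 8. The count fell to 7 without ZT 6 replicate 2, ZT 14 replicate 2 or the 2 libraries that stood apart, and to 5 without ZT 18 replicate 2. The nucleolar protein Ncl was not called (adjusted p = 0.105).

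Plasma protein genes were rhythmic in 12 of 45 (26.7%, near the 28.9% of all genes, 9 in all 3 fits). The fibrinogen chains Fga and Fgg peaked at ZT 0.821 ± 0.554 h and ZT 1.78 ± 0.612 h, and their amplitudes were 0.53 and 0.50 (edgeR adjusted p = 0.00272 and 0.00455). Fga measured 5025 and 4781 CPM at ZT 2, 4367 and 4728 at ZT 6, 3207 and 3265 at ZT 10, 2299 and 2386 at ZT 14, 4216 and 3832 at ZT 18, and 5618 and 5114 at ZT 22. The ZT 14 pair was below all others and the ZT 22 pair above. Angptl8, a secreted protein that acts on lipoprotein lipase, peaked at ZT 17.8 with a fold of 11.3 (edgeR adjusted p = 0.0064). Albumin, Alb, lay between 50665 and 75435 CPM and was not called, nor was Apoe (adjusted p = 0.0732 and 0.179). The count of 12 became 21 without ZT 2 replicate 2 and 1 in the joint fit with Hu livers. With library totals the calls divided into 10 before and 4 after ZT 12, against 7 and 5.

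Genes of the growth hormone axis and sex-biased genes were rhythmic in 8 of 25 (32%, near the 28.9% of all genes), and in 4 in all 3 fits. Stat5b, which carries the growth hormone signal, measured 96.5 and 91.8 CPM at ZT 2, 70.7 and 68.3 at ZT 6, 42.1 and 50.2 at ZT 10, 51.5 and 48.7 at ZT 14, 73.7 and 59.2 at ZT 18, and 82.4 and 72.2 at ZT 22. The ZT 2 pair was above all others, and the amplitude was 0.48 ± 0.06 at ZT 0.388 ± 0.514 h (edgeR adjusted p = 0.0015). Elovl3, a fatty acid elongase with higher levels in males, measured 381 and 262 CPM at ZT 2, 166 and 244 at ZT 6, 8.61 and 56.9 at ZT 10, 102 and 29.7 at ZT 14, 396 and 526 at ZT 18, and 431 and 587 at ZT 22. The replicates of ZT 10 and 14 differed by over 3-fold, and the fold from trough to peak was 14 (edgeR adjusted p = 0.0156). Igfals, which holds IGF1 in the circulation, peaked at ZT 15.6 ± 0.818 h with an amplitude of 0.39 ± 0.08 (edgeR adjusted p = 0.0154). The pheromone-binding Mup3 and Mup20, near-identical members of a gene family whose counts are uncertain, were not called (adjusted p = 0.908 and 0.859). The count of 8 fell to between 3 and 5 without ZT 6 replicate 2, ZT 10 replicate 2, ZT 22 replicate 2 or any library of ZT 14 or 18, and to 4 without the 2 libraries that stood apart.

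Cell division genes were rhythmic in 5 of 28 (17.9%, below the background, 4 in all 3 fits). Beside Wee1 they were Ccne1, Cdt1, Mcm7 and, named after its values were seen, Birc5. Ccne1, which starts DNA replication, measured 1.27 and 1.33 CPM at ZT 2, 1.07 and 1.11 at ZT 6, 7.97 and 3.54 at ZT 10, 1.63 and 1.68 at ZT 14, 0.828 and 1.17 at ZT 18, and 0.911 and 1.31 at ZT 22. Cdt1, which licenses replication origins, had an amplitude of 0.97 ± 0.21 at ZT 6.99 ± 0.814 h. For both, the highest value was in ZT 10 replicate 1, and Ccne1 was not called without that library, without ZT 10 replicate 2, or without either ZT 18 library or ZT 22 replicate 1 (edgeR adjusted p = 0.0279 over all 12). Cdt1 was not called without ZT 18 replicate 2 (edgeR adjusted p = 0.0178 over all 12). Ccnd1, at 247 CPM in ZT 10 replicate 1 against 18.4 to 105 CPM elsewhere, was not called (adjusted p = 0.209). The count of 5 became 8 without ZT 10 replicate 1, 3 without ZT 10 replicate 2, ZT 22 replicate 1 or either ZT 14 library, and 2 and 1 without ZT 18 replicates 1 and 2.

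**Figure D5:**
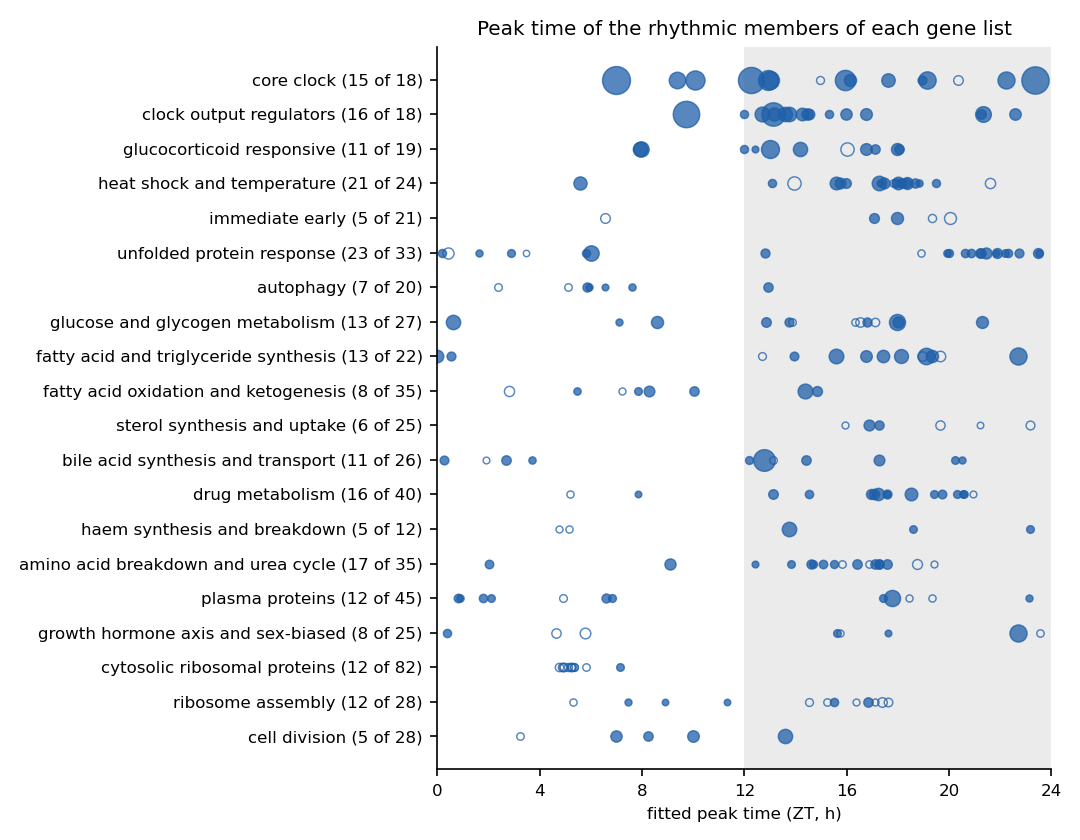
Fitted peak time (x axis, ZT in hours) of each rhythmic member of the 20 function lists (y axis, with the number called of those tested). Larger points have larger amplitudes, filled points were called in all 3 fits and open points in fewer, and grey marks ZT 12 to 24. Heat shock points gather after ZT 12 (20 of 21) and ribosomal protein points before it (12 of 12). Among all 3928 rhythmic genes, 1934 peaked before ZT 12 and 1994 after it.

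Markers of other liver cells were also measured. Of 11 Kupffer cell markers 0 were called rhythmic by edgeR (3 at an unadjusted p under 0.05, and 2 called by DESeq2), and their summed level lay between 582.9 and 1126 CPM, highest in ZT 2 replicate 1. Of 9 sinusoidal endothelium markers 1 was called (11.1%, below the 28.9% of all genes). Of 11 stellate cell and fibroblast markers 3 were called (27.3%, near that share). All 3 peaked before ZT 6, as did 1114 of all 3928 rhythmic genes. The stellate sum ran from 343.5 to 647.8 CPM, highest in ZT 2 replicate 2. Bile duct and progenitor markers were called in 5 of 8 members (62.5% against 28.9%), 3 of them in all 3 fits (17.5% of all genes were). Of the 5, 2 peaked between ZT 0 and 6, and 3, Sox9 among them, between ZT 18 and 24. Sox9, a transcription factor of bile duct cells, measured 9.94 and 11.5 CPM at ZT 2, 4.83 and 5.18 at ZT 6, 4.2 and 4.43 at ZT 10, 9.42 and 8.35 at ZT 14, 13.6 and 13.6 at ZT 18, and 14.9 and 14.7 at ZT 22. The libraries of ZT 18 and 22 were above all others, and the amplitude was 0.94 ± 0.07 at ZT 20.6 ± 0.288 h (edgeR adjusted p = 9.39e-05). Krt19, a keratin of bile duct cells named after its values were seen, was highest at ZT 2, at 5.87 and 5.39 CPM, lay between 1.02 and 2.47 CPM at all other times, and was not called (edgeR adjusted p = 0.0601). The summed level of that list ran from 76.8 to 155.8 CPM, lowest in ZT 6 replicate 1 and highest in ZT 2 replicate 2.

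Genes with the smallest p in each 6 h of the day included several outside the lists. From ZT 0 to 6 these were Mcu, the mitochondrial calcium channel, Arl2bp, Mettl27, Nckap5 and Ccn4. Mcu measured 42.1 and 35.8 CPM at ZT 2, 27.5 and 33.7 at ZT 6, 16.5 and 16.1 at ZT 10, 15.8 and 13.3 at ZT 14, 20.1 and 19.8 at ZT 18, and 37.2 and 31.6 at ZT 22. Its amplitude was 0.77 ± 0.06 at ZT 1.34 ± 0.301 h (edgeR adjusted p = 9.39e-05). All libraries of ZT 10 and 14 were below those of ZT 2, 6 and 22. From ZT 6 to 12, beside Nr1d2 and Nr1d1, these were Upp2, a uridine phosphorylase, Fbxo21, of a ubiquitin ligase, and Rcl1. Upp2 measured 53.8 and 78.6 CPM at ZT 2, 168 and 167 at ZT 6, 496 and 826 at ZT 10, 340 and 613 at ZT 14, 153 and 124 at ZT 18, and 62.4 and 78 at ZT 22. Its amplitude was 1.77 ± 0.14 at ZT 11.7 ± 0.302 h (edgeR adjusted p = 9.39e-05). Libraries of ZT 10 and 14 were all above the rest. Fbxo21 had an amplitude of 1.46 ± 0.11 at ZT 6.39 ± 0.299 h (edgeR adjusted p = 9.39e-05).

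From ZT 12 to 18, the smallest p-values included those of Nrg4, Gda, Pdxk and Nmrk1. Nrg4, a secreted ligand of ErbB4, measured 2.82 and 3.35 CPM at ZT 2, 4.65 and 3.33 at ZT 6, 16.2 and 17.2 at ZT 10, 30.7 and 38.8 at ZT 14, 12.9 and 11.1 at ZT 18, and 4.93 and 5.38 at ZT 22. The ZT 14 pair was above all others, and the amplitude was 1.72 ± 0.12 at ZT 13.9 ± 0.264 h (edgeR adjusted p = 4.06e-05). Nmrk1, a kinase that makes NAD from nicotinamide riboside, had an amplitude of 1.34 ± 0.11 at ZT 13.9 ± 0.308 h, next to Nampt in time (edgeR adjusted p = 9.39e-05). Gda, guanine deaminase, and Pdxk, pyridoxal kinase, peaked at ZT 16.8 and ZT 16.1 with amplitudes of 1.16 and 0.75. From ZT 18 to 24, beside Cry1, Sox9 and Ppard, they were Btg1 and Ypel2, at ZT 24 and ZT 22.7 with amplitudes of 0.66 and 0.99. Of the 10 largest amplitudes, 8 belonged to genes described above, and the other 2 were Nat8f6 and Nat8f5, acetyltransferase-like genes with near-identical copies whose counts are uncertain. Nat8f5 measured 0.957 and 2.08 CPM at ZT 2, 0.495 and 0.577 at ZT 6, 1.96 and 2.18 at ZT 10, 16.6 and 16.8 at ZT 14, 8.64 and 19 at ZT 18, and 6.03 and 7.68 at ZT 22. Its amplitude was 2.48 ± 0.21 (edgeR adjusted p = 0.000215). Its libraries of ZT 14, 18 and 22 were above those of ZT 2, 6 and 10.

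With time as 6 separate levels, which uses only the spread within each pair and assumes no wave form, 916 of 13577 genes differed (6.75%), 856 of them also rhythmic by the cosine. Leaving out 1 library moved this count between 265 without ZT 14 replicate 2 and 4009 without ZT 2 replicate 2, by over 1.5 times for every library but ZT 6 replicate 1 and ZT 10 replicate 2. Of the core clock 13 members and of the output regulators 14 passed this test, of heat shock 17 of 24 and of the unfolded protein response 4 of 33. A wave of 12 h period added to the 24 h wave was called for 0 genes by edgeR, with 713 (5.25%) at an unadjusted p under 0.05, and for 94 (0.692%) by DESeq2. The smallest p-values were those of Per1, Ciart, Dbp, Gm10036, Sik1 and Dio1, at adjusted p-values of 0.0518 to 0.092. Dio1, which activates thyroid hormone, measured 7.43 and 5.13 CPM at ZT 2, 4.06 and 5.19 at ZT 6, 2.95 and 3.59 at ZT 10, 9.49 and 10.9 at ZT 14, 5.17 and 3.96 at ZT 18, and 2.51 and 3.25 at ZT 22. Both ZT 14 libraries were above all others.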

How the data were processed

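Raw counts per gene were deposited by the authors for 27 livers, with human and mouse Ensembl genes in separate lines of 1 table. Per the submitters' processing notes STAR was used with the builds GRCm38 (mm10), GRCh38 (hg38) and hg19; the counting program and annotation are not given in the sources used here. The library kit was directional, per the labels' protocols. The 12 Mu columns and the mouse genes were analysed; the other tissues were not used here.

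Genes were kept by edgeR's filterByExpr (13577 of 19689) and scaled by TMM, with factors of 0.95 to 1.12. A 24 h cosine and sine were tested together with edgeR 4.0.16 in R 4.3.3 (quasi-likelihood F test, Benjamini-Hochberg adjustment, threshold 0.05), which gave the amplitude and peak time with standard errors. Time as 6 levels, an added 12 h wave and, over 27 livers, the difference between Mu and Hu rhythms were tested likewise. The script was tested on simulated counts of 13577 genes. It called 49% of 100 genes given an amplitude of 0.5, 94% of 100 given an amplitude of 1, and 10 unchanged genes. A gene that was not called can therefore still have a rhythm of such an amplitude. CPM values are counts relative to the library total after TMM scaling. Transcript lengths and GC content came from GENCODE basic transcripts of GRCm38 (99.8% of genes tested).

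Genes named are all core clock and output regulators; in each other list the 4 called genes with the smallest p and up to 2 uncalled genes of highest level; the 10 largest amplitudes; the 5 smallest p per 6 h of the day; the 6 smallest p for a 12 h wave; the 3 smallest p against Hu livers; and the deleted genes, of which Rag2 was too low to be tested. Some genes that this rule names are not reported here. Members and lists were chosen with earlier results of these data known. The lists share some members, such as Alas1, Wee1 and Elovl3, which are counted in each. Alternatives covered scaling, filtering, DESeq2 1.42.0, limma 3.58.1, wave form, a joint fit, a replicate block and leaving out each library.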

Additional observations from a re-analysis of the deposited data

Results flagged for a closer look

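The rhythm of 192 genes differed between Mu livers and the mouse genes of Hu livers by edgeR's test of the difference itself. The adjusted p was 0.000209 for Nckap5, 0.000732 for Ppard and 0.0018 for Lrp4, the 3 smallest. Among core clock genes it was 0.00622 for Cry1, 0.018 for Per2, 0.0217 for Nr1d2, 0.024 for Nr1d1, 0.0445 for Npas2 and 0.0449 for Bhlhe40. Among output regulators it was 0.0132 for Por, 0.0186 for Wee1, 0.0212 for Alas1, 0.0243 for Usp2 and 0.0498 for Tsc22d3. Nckap5, Ppard, Lrp4, Cry1 and Por also differed without ZT 2 replicate 1 and ZT 6 replicate 2, and the other 9 did not pass the threshold then. In all 14 genes the fitted amplitude was larger in Mu than in Hu livers. In Tsc22d3 it was 1.03 against 0.98, with peaks at ZT 16.7 and ZT 13.7. The test of the difference was not run with each single library left out in turn.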

How the results depend on the processing

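Leaving out 1 library in turn gave 2045 to 5702 genes with a 24 h rhythm, 918 to 2072 with a fold of at least 2, 265 to 4009 with time as 6 levels and 0 to 4 with a 12 h wave. By 6 h of peak time it gave 536 to 1827 (ZT 0 to 6), 392 to 1419 (ZT 6 to 12), 616 to 1751 (ZT 12 to 18) and 393 to 1382 genes (ZT 18 to 24). In the joint fit with Hu livers 2598 genes were rhythmic, with 701, 535 and 457 peaking in ZT 0 to 6, 6 to 12 and 18 to 24. With library totals the ZT 6 to 12 and ZT 18 to 24 peaks numbered 1505 and 423. DESeq2 gave 1791 genes for ZT 12 to 18, 3593 with time as 6 levels, 94 with a 12 h wave and 1152 that differed from Hu livers. With no filter on low counts 14 genes had a 12 h wave. Without ZT 2 replicate 1 and ZT 6 replicate 2, chosen after seeing the data, the values were 489 (ZT 0 to 6), 664 (ZT 12 to 18), 1623 (6 levels), 1 (12 h wave) and 20 (against Hu livers). With the replicate number as a block 3124 genes were rhythmic, 490 differed with time as 6 levels and 1 had a 12 h wave. Deviations of replicate 1 from the mean of its time correlated over 0.1 in 4 of 15 pairs of times (-0.593 to 0.319). These deviations also carry the length trend of the libraries, so they cannot decide whether the replicate numbers pair the libraries. The cause of these shifts was not tested. Of 125 called named genes, 77 kept their call in all 23 alternatives, and no named gene's peak turned by over 6 h. Of 460 list counts 369 stayed within 1.5 times. With 2 libraries a time, the peak times of rhythmic genes had a median standard error of 0.866 h.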
